A study of Mus musculus with 12 samples.

Results

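The comparison set 2 libraries of *c-Myc* + *R172H* osteoblasts against 4 libraries of juvenile *Osx*+ osteoblasts, 6 of the 12 libraries of the series, and asked how far the whole transcriptome of premalignant osteoblasts had moved from that of the juvenile cells. Members were all genes that passed an expression filter, 12588 of the 32288 genes and transgenes counted. All mice carried *Osx-CreERT2*, a tamoxifen-activated Cre under the control of *Osx* (*Sp7*), and *mTmG*, a reporter that replaces membrane tdTomato with membrane GFP once Cre has acted. The induced mice had in addition *LSL-tTA*, which makes the tetracycline transactivator after Cre recombination, and the transgene *Col1a1*::*TetO–c-Myc*, which that transactivator switches on. Those of the *c-Myc* + *R172H* group also had *Trp53-LSL-R172H*, a dominant-negative *Trp53* allele released by the same Cre, and 2 libraries from *c-Myc* mice without this allele shared the statistical fit. GFP-positive, CD31-negative, CD45-negative and TER119-negative cells were sorted from the metaphysis of femurs and tibias, and their RNA was sequenced in bulk.

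The groups differed in more than the alleles. Each juvenile library pooled 2 male mice aged 3 weeks, collected 2 days after the last of 3 daily doses of tamoxifen, with the diaphysis cut 2 mm from the growth plate. The *c-Myc* + *R172H* mice were of both sexes and titled 3 weeks. They received tamoxifen on 2 days with collection 7 days later, and were trimmed at 5 mm. The methods of the authors call them 5 weeks old at dissection. Yet the methods also place this tamoxifen at 3 weeks of age, so the age at collection is not settled. Mice with the tetracycline-controlled transgene, or pregnant females, were also given doxycycline or tetracycline to drink, which was withdrawn before analysis. The methods name no such drug for mice without that transgene. The effects of the alleles, age, sex, this drug, interval after tamoxifen and dissected length therefore cannot be told apart here. The p-values measure only the spread between these libraries. In bulk RNA, fewer cells of a type and less RNA per cell also cannot be told apart.

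MYC is a transcription factor that binds DNA with its partner MAX, with a preference for the E-box CACGTG, and is best known for raising ribosome production, nucleotide synthesis and entry into the cell cycle. p53, the product of *Trp53*, answers DNA damage and oncogene activity by switching on genes of cell cycle arrest and apoptosis, among them *Cdkn1a*, which encodes the CDK inhibitor p21. The ARF protein, one of the products of *Cdkn2a*, links MYC activity to p53 by blocking MDM2, the ubiquitin ligase that removes p53. Osteoblasts are recognized by RUNX2 and OSX and by the collagen-rich matrix that they secrete and mineralize.

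Library totals were 12648874, 12222791, 10256521 and 11656001 counts in juvenile replicates 1 to 4, and 13745901 and 12823338 counts in *c-Myc* + *R172H* replicates 1 and 2. A few genes took most of them. *Col1a1*, *Col1a2* and *Gm26917*, a non-coding gene beside a ribosomal RNA repeat on chromosome 17, together held from 57.1% to 65.3% of the counts in juvenile libraries, and 35.2% and 37.6% in the *c-Myc* + *R172H* libraries. Juvenile libraries had at least 1 count for 12484 to 13764 genes, and *c-Myc* + *R172H* libraries for 16087 and 16153. On the principal components of the 2000 most variable genes, the first component held 87.4% of the variance and set all 4 juvenile libraries apart from all induced ones. Juvenile replicate 4 stood apart from the other juvenile libraries on the second component (4.91% of the variance). The *c-Myc* + *R172H* libraries differed in sex-linked genes, in CPM (counts per 1000000 on the normalized library size), with *Xist* at 0.192 in replicate 1 and 226 in replicate 2, and the Y-linked *Ddx3y* at 18 and 0.053. Replicate 1 thus looked male and replicate 2 female, although the methods elsewhere state that males were used for RNA-seq.

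The balance of the counts moved from matrix genes to *Gm26917* and to other genes. *Col1a1*, the main collagen chain of bone, took 33.4%, 35.7%, 37.8% and 39.1% of the counts in the juvenile libraries, and 5.61% and 5.83% in the *c-Myc* + *R172H* libraries. *Gm26917* went the other way, from 8.46%, 7.19%, 7.87% and 7.79% to 26.5% and 28.7%. The groups were far apart for both genes. Genes called lower held 77.1 ± 2.02% (SD, n = 4) of the juvenile counts and 23.6 ± 0.0858% (SD, n = 2) of the *c-Myc* + *R172H* counts, while genes called higher held 15.5 ± 1.26% (SD, n = 4) and 61.0 ± 0.429% (SD, n = 2). With *Gm26917* left out, genes called higher held 7.66% and 33.4%. *Gm42418*, another predicted model, took a mean of 1.06% of the juvenile and 4.45% of the *c-Myc* + *R172H* counts and was not left out.

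**Figure D1:**
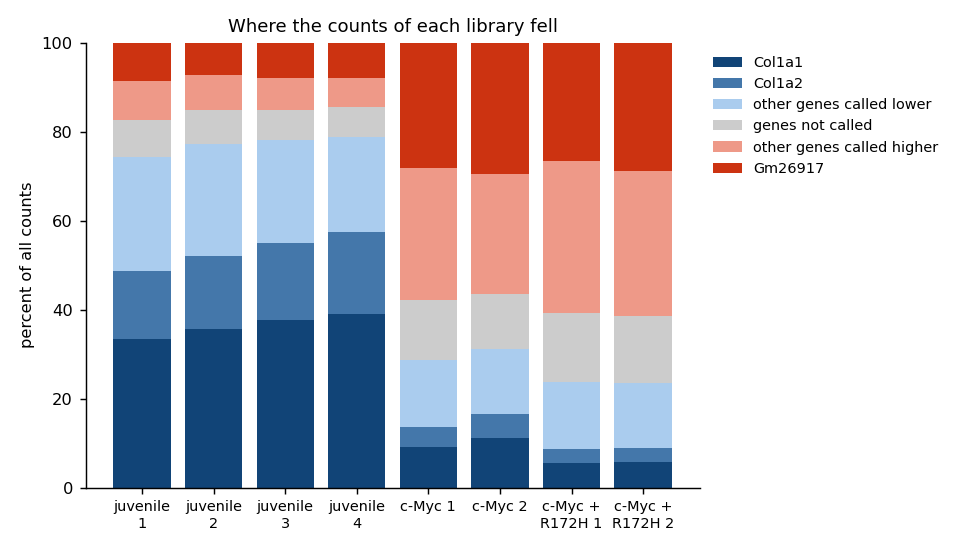
Percent of all counts (y axis) that fell on *Col1a1*, *Col1a2*, the other genes called lower, genes not called, the other genes called higher and *Gm26917* in each of the 8 libraries of the fit (x axis). The blue blocks fill from 74.3% to 78.9% of the juvenile bars and 23.7% and 23.6% of the *c-Myc* + *R172H* bars.

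At an adjusted p below 0.05 (quasi-likelihood F test of edgeR with Benjamini-Hochberg adjustment; such genes are named called), 3832 genes were higher and 3311 were lower in *c-Myc* + *R172H* osteoblasts, which is 30.4% and 26.3% of the 12588 tested, or 7143 genes (56.7%) in either direction. Changes were large as well as many. Of the called genes, 2466 (19.6% of those tested) were at least 2-fold higher and 2258 (17.9%) at least 2-fold lower, 407 and 479 differed at least 8-fold, and 146 and 109 at least 32-fold. The CPM of the libraries did not overlap between the groups for 4645 genes (36.9%) in the higher and 3772 genes (30.0%) in the lower direction. These shares are the background for every list of genes below. The median log2 fold change of all tested genes was 0.08, that of genes called higher 1.28 and that of genes called lower -1.43.

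These directions are relative to the TMM scaling, which takes most genes as unchanged. Its factors ran from 0.659 to 0.812 in juvenile libraries and were 1.51 and 1.47 in the *c-Myc* + *R172H* libraries. With plain library totals in its place, the median log2 fold change of all tested genes moved from 0.08 to 1.12, 7668 genes were called higher and 1169 lower, and the share of higher genes among those called rose from 53.6% to 86.8%. The total RNA of a cell was not measured, so the data do not say which scale is nearer to the amount per cell. Fold changes below are on the TMM scale, and a direction that turns with library totals is given as such.

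**Figure D2:**
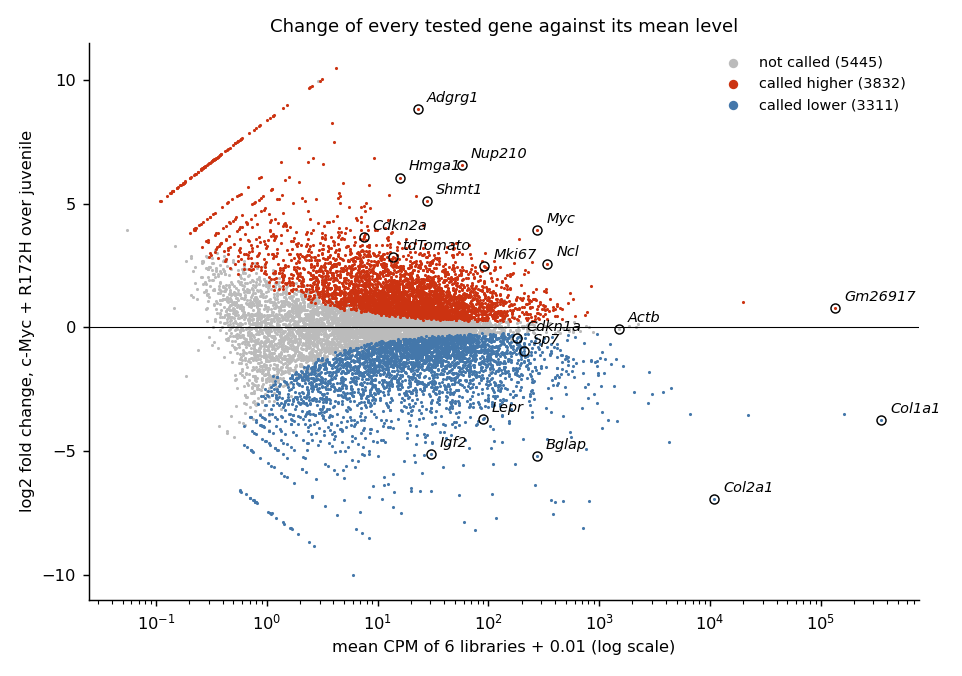
Log2 fold change of *c-Myc* + *R172H* over juvenile (y axis) against the mean CPM of the 6 libraries, with 0.01 added, on a log axis (x axis) for the 12588 tested genes. Red points are the 3832 genes called higher, blue points the 3311 called lower, grey points the 5445 not called, and circles mark genes named in the text; the straight streaks at low levels are genes with no count in one group.

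The genes of the introduced changes were read at the start. *Myc* (ENSMUSG00000022346, chromosome 15 of GRCm38 from 61985391 to 61990374, plus strand) had 47.3, 55.1, 41.6 and 49.5 CPM in the juvenile libraries and 672 and 798 CPM in the *c-Myc* + *R172H* libraries. Both induced libraries were far above all juvenile ones, and *Myc* rose 15.2-fold (log2 fold change 3.92, SE 0.11, adjusted p = 5.24e-10). Reads of the transgene and of the native gene cannot be told apart in these counts. *Trp53* (chromosome 11, 69580359 to 69591873) had 24.8, 27.5, 24.0 and 21 CPM in the juvenile and 65.4 and 67.6 CPM in the *c-Myc* + *R172H* libraries. The groups did not overlap, and *Trp53* rose by 1.45 on the log2 scale (SE 0.13, adjusted p = 1.01e-06). With *c-Myc* alone *Trp53* was at 67.4 and 58.3 CPM, a similar rise over the juvenile libraries (1.37, SE 0.13). The counts do not separate the mutant from the wild-type allele, so the level of *Trp53* is no check of the introduced allele.

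Reporter transcripts were measured too. *EGFP*, which encodes the protein used for sorting, had 304, 473, 599 and 483 CPM in the juvenile and 390 and 394 CPM in the *c-Myc* + *R172H* libraries, overlapping levels (log2 fold change -0.24, SE 0.19, adjusted p = 0.292; 0.83 with library totals, and -0.41 with adjusted p = 0.00866 without juvenile replicate 1). *CreERT2* fell by 1.26 on the log2 scale (SE 0.15, adjusted p = 1.13e-05), from 53.5 to 73.1 CPM in juvenile libraries to 26.5 and 29.4 CPM, and was not called with library totals (-0.21, adjusted p = 0.225). *tdTomato*, the reporter that Cre removes, had 9.26, 6.09, 0.727 and 1.17 CPM in the juvenile and 30.4 and 35.3 CPM in the *c-Myc* + *R172H* libraries. It was higher in both induced libraries than in any juvenile library (log2 fold change 2.84, SE 0.59, adjusted p = 0.0031; 3.52 without juvenile replicate 1). The *c-Myc* transgene carries mCherry, a related red fluorescent protein, so the source of these reads cannot be told apart.

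**Figure D3:**
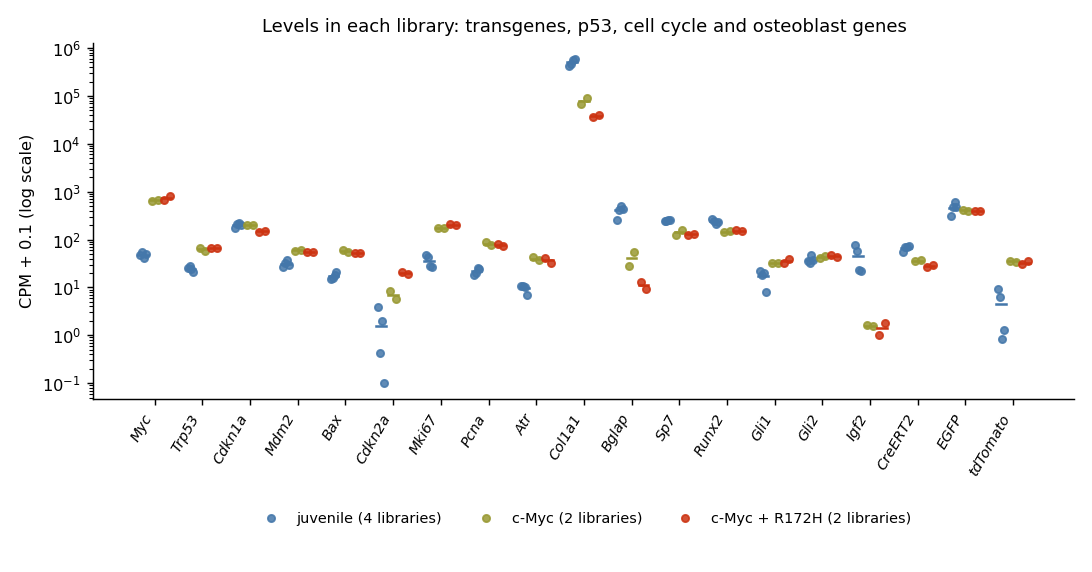
CPM plus 0.1 on a log axis (y axis) of transgenes, p53 pathway, cell cycle and osteoblast genes (x axis) in each library, with 1 point per library and a bar at the group mean. *Myc* lies between 41.6 and 55.1 CPM in juvenile libraries and at 672 and 798 CPM in *c-Myc* + *R172H* libraries, while *Gli2* and *EGFP* overlap between these groups.

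The p53 pathway did not move as a block. *Cdkn1a* (chromosome 17, 29090976 to 29100727) had 175, 212, 217 and 198 CPM in the juvenile and 144 and 151 CPM in the *c-Myc* + *R172H* libraries. It was lower in both (log2 fold change -0.44, SE 0.10, adjusted p = 0.00262), but with library totals it was higher (0.61). *Cdkn2a* (chromosome 4, 89274471 to 89294653) had 3.70, 0.326, 1.89 and 0 CPM in the juvenile and 20.4 and 18.7 CPM in the *c-Myc* + *R172H* libraries. The gene rose (log2 fold change 3.66, SE 0.66, adjusted p = 5.15e-04; 4.81 without juvenile replicate 1), and the gene-level counts do not separate ARF from p16, its other product. *Mdm2*, both a target and an inhibitor of p53, rose by 0.80 on the log2 scale (SE 0.13, adjusted p = 2.30e-04), from 26.8 to 36.9 CPM in juvenile libraries to 53.5 and 55.4 CPM. *Bax*, a pro-apoptotic target, had 15.0 to 21.1 CPM in juvenile libraries and 53.1 and 51.6 CPM in *c-Myc* + *R172H* libraries (log2 fold change 1.59, SE 0.14, adjusted p = 1.37e-06).

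Of 40 listed p53 targets, 39 were tested, 21 were called higher and 6 lower, where 30.4% and 26.3% of all tested genes were, and the median log2 fold change was 0.73. The largest increases were those of *Psrc1*, a spindle protein (3.80), and *Slc19a2*, a thiamine transporter (3.51). The largest decreases were those of *Pmaip1*, which encodes the pro-apoptotic NOXA (-2.50), and *Btg2*, an anti-proliferative gene (-1.62). The other members called lower were *Ak1* (-1.13, not called with library totals, adjusted p = 0.629), *Ptpn14* (-0.65, but 0.40 with library totals), *Cdkn1a* and *Tob1* (-0.40, but 0.66 with library totals, and not called without either *c-Myc* + *R172H* library, with adjusted p = 0.152 and 0.0617). With library totals 30 were called higher and 2 lower. In the *c-Myc* libraries without the mutant allele, which share the juvenile controls, 21 of the targets were higher and 4 lower than in juvenile libraries, against backgrounds of 28.4% and 25.0% of all genes. Between the induced groups, 33 of the 39 were lower and 6 higher with the mutant allele, where 50.7% of all tested genes were lower. The median log2 fold change of the targets was -0.20, that of all tested genes -0.003, and 0 of the targets were called. *Cdkn1a* itself was at 198 and 206 CPM with *c-Myc* alone, and the call of its difference between the induced groups depended on the fit. The difference did not pass in the main fit (log2 fold change -0.45, adjusted p = 0.171). With the replicate number as a block it did (-0.45, adjusted p = 0.00442 by edgeR).

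Genes that sense and repair DNA damage were mostly higher. Among 47 tested of 48 listed, 43 were called higher, where 30.4% of all genes were, and the median log2 fold change was 1.88; the 4 not called were *Fancb*, *Rpa3*, *Rad9a* and *Rnf168*, of which *Rad9a* was called without juvenile replicate 1 (1.34, adjusted p = 0.00844). The kinase *Atr*, which responds to stalled replication forks, had 10.6, 10.7, 10.3 and 6.90 CPM in the juvenile and 40.9 and 32.2 CPM in the *c-Myc* + *R172H* libraries. All juvenile values lay below both induced ones (log2 fold change 1.92, SE 0.19, adjusted p = 2.59e-06). *Atm*, the kinase that responds to broken DNA, rose by 2.08 (SE 0.21) and the checkpoint kinase *Chek1* by 3.62 (SE 0.57, 4.52 without juvenile replicate 1), the latter from at most 2.24 CPM in juvenile libraries to 11 and 14.2 CPM. *Rad54l*, a recombination factor (4.36, SE 0.47), and *Fanci*, a component of the Fanconi anaemia pathway (4.28, SE 0.65, 5.35 without juvenile replicate 1), rose most among the genes named by rule, each from at most 1.60 CPM.

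Cell cycle genes were higher almost throughout. Of 40 DNA replication genes, 39 were called higher, where 30.4% of all tested genes were (median log2 fold change 2.69), *Gins3* being the one not called (0.67, SE 0.59), and all 40 mitosis genes were called higher (median 2.46). *Mki67*, the common marker of cycling cells, had 47.5, 43.1, 27.5 and 27.0 CPM in the juvenile and 207 and 199 CPM in the *c-Myc* + *R172H* libraries, with no overlap (log2 fold change 2.48, SE 0.18, adjusted p = 2.49e-07). *Pcna*, the clamp that holds DNA polymerases on their template, had 17.7, 20.2, 25.1 and 23.6 CPM in the juvenile and 80.3 and 72.7 CPM in the *c-Myc* + *R172H* libraries. It rose by 1.83 on that scale (SE 0.14, adjusted p = 3.12e-07). *Mcm2*, a subunit of the replicative helicase, rose by 3.36 (SE 0.16), and *Bub1b*, of the spindle checkpoint, by 4.15 (SE 0.15), from 3.05 to 4.43 CPM to 69.7 and 68.7 CPM. *Cdc6*, a licensing factor, had at most 3.22 CPM in juvenile libraries and 16.5 and 15.6 CPM in *c-Myc* + *R172H* libraries; edgeR called it (log2 fold change 3.66, SE 0.72, adjusted p = 0.00127; 5.06 without juvenile replicate 1), whereas DESeq2 did not (adjusted p = 0.0732 with 8 libraries and 0.164 with 6).

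Of 23 genes of G1 control, 13 were called higher and 4 lower, where 30.4% and 26.3% of all tested genes were (median 1.20), the latter 2 without *c-Myc* + *R172H* replicate 2. With library totals 19 were called higher and 1 lower (median 2.24). *Ccne1*, the cyclin that starts S phase, rose by 3.10 (SE 0.35), from 1.31 to 4.65 CPM to 19.4 and 18.5 CPM. *Cdkn1c*, the imprinted CDK inhibitor p57, had 75.7, 92.0, 56.2 and 29.1 CPM in the juvenile and 6.64 and 6.15 CPM in the *c-Myc* + *R172H* libraries, and fell by 3.31 (SE 0.39, adjusted p = 1.78e-05). *Cdkn2b* and *Cdkn2c*, which encode the CDK4/6 inhibitors p15 and p18, were not called, at 0.65 (SE 0.67, adjusted p = 0.434) and -0.57 (SE 0.33, adjusted p = 0.157; 0.47 with library totals). Of 25 tested apoptosis regulators, 8 were called higher and 9 lower, against 30.4% and 26.3% of all genes (median -0.10, or 0.95 with library totals, by which 14 were called higher and none lower). Without *c-Myc* + *R172H* replicate 2 only 5 were called lower. *Bid* (2.73) and *Bok* (2.49), both pro-apoptotic, rose most, while *Birc3*, an inhibitor of apoptosis (-1.57), *Bmf*, a pro-apoptotic BH3-only gene (-1.53), and *Bcl2*, an anti-apoptotic gene (-1.25), fell. With library totals the latter 3 were not called (adjusted p = 0.147, 0.0789 and 0.577).

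Genes of ribosome and nucleotide production rose together. All 30 ribosome biogenesis genes were called higher, against 30.4% of all genes, between 0.90 and 2.71 on the log2 scale (median 2.26). *Ncl*, which encodes nucleolin, had 153, 140, 101 and 119 CPM in the juvenile and 774 and 758 CPM in the *c-Myc* + *R172H* libraries, well apart (log2 fold change 2.58, SE 0.13, adjusted p = 1.16e-08). *Npm1*, another abundant nucleolar protein, rose by 2.66 (SE 0.13), and *Fbl*, the methyltransferase of box C/D ribonucleoproteins, by 2.71 (SE 0.15). Of 24 genes of nucleotide and one-carbon synthesis, 22 were called higher and 1 lower, against 30.4% and 26.3% of all genes (median 2.13), with *Mthfd2* (0.29, adjusted p = 0.0652) not called unless juvenile replicate 3 was left out (0.37, adjusted p = 0.00933). *Shmt1*, the cytosolic enzyme that moves a carbon from serine to folate, had 1.46, 1.20, 3.05 and 4.04 CPM in the juvenile and 84.0 and 74.8 CPM in the *c-Myc* + *R172H* libraries, the largest rise of this list (log2 fold change 5.09, SE 0.27, adjusted p = 1.95e-08). *Cad*, the enzyme that opens pyrimidine synthesis, rose by 1.42 (SE 0.08) from 152 to 170 CPM to 443 and 416 CPM. *Impdh1*, an enzyme of guanine nucleotide synthesis, was the exception at -0.43 (SE 0.10, adjusted p = 0.00227), which became 0.61 with library totals.

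Promoter letters of these genes are shown because the lists moved together. RefSeq windows (GRCm38.p6, 250 bases before to 50 after the start) were read for the 7550 tested protein-coding genes with 1 window in the table. The E-box CACGTG, which reads the same on both strands, stood in 12.1% of windows of genes called higher, 9.44% of genes called lower, 9.98% of genes not called and 7.12% of all windows. TTTGGCGC, the core letters of E2F sites, searched on both strands and not overlapping with the E-box letters, stood in 1.53%, 0.367%, 1.01% and 0.503%. The E-box was in 10.6% of windows of all tested genes, in 5 of 22 windows of ribosome biogenesis genes, 3 of 19 of nucleotide synthesis, 3 of 28 of DNA replication, 4 of 31 of mitosis, 1 of 28 of matrix and 0 of 12 of growth plate chondrocyte genes. Both motifs hold the letters CG, and the median number of CG was 7.5 in matrix and 8 in chondrocyte windows, against 22 in tested windows. Other motifs were read as well. Among them, CACGCG stood in 22.9% of windows of genes called higher and 16.5% of genes called lower, and CCAAT in 23 of 31 mitosis windows and 39.5% of tested ones. TTTGGCGC was in 1.02% of tested windows and in 6, 1, 0 and 0 of those of DNA replication, ribosome biogenesis, nucleotide synthesis and mitosis genes. The stretches below are a choice among the windows with these letters, made after the calls were seen and so that genes called higher, called lower and not called are shown. They run 5′ to 3′ in the direction of the gene, lie upstream of its start, and have the searched letters in capitals, for *Mcm5* and *Pola1* those of the opposite strand.
Nop2 (chr6:125131813-125131838, plus strand): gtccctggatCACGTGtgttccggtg
Rrn3 (chr16:13780641-13780666, plus strand): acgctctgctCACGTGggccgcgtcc
Impdh2 (chr9:108560316-108560341, plus strand): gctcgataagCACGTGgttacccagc
Tyms (chr5:30073671-30073696, minus strand): ccacttctgtCACGTGggggcggggt
Dnph1 (chr17:46496762-46496787, plus strand): tttcccaggtCACGTGgtagcggcgg
Mxd4 (chr5:34187914-34187939, minus strand): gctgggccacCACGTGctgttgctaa
Pdpn (chr4:143299693-143299718, minus strand): ctgtttactgCACGTGgccccctttt
Eef2 (chr10:81176578-81176603, plus strand): ccggcgccgtCACGTGacgcacccaa
Mcm5 (chr8:75109350-75109377, plus strand): aagaactttcGCGCCAAAacgtccagcc
Mcm6 (chr1:128359735-128359762, minus strand): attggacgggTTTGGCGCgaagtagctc
Pola1 (chrX:93632276-93632303, minus strand): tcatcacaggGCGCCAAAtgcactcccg

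*Mxd4*, a MAX partner that represses E-box genes, and *Pdpn*, a membrane protein of young osteocytes, were called lower, and *Eef2*, a translation factor, was not called, while the other genes shown were called higher. *Mxd4* had 226, 251, 241 and 257 CPM in the juvenile and 78.6 and 75.9 CPM in the *c-Myc* + *R172H* libraries (log2 fold change -1.66, SE 0.09, adjusted p = 2.73e-08). The same 6 letters thus stood upstream of genes of all 3 kinds. A match in a window is a description of letters and not evidence of binding.

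In the MYC network as a whole, 5 of 14 tested genes were called higher and 2 lower, against 30.4% and 26.3% of all genes (median 0.27), the former 3 without *c-Myc* + *R172H* replicate 1. With library totals 11 were called higher and 1 lower (median 1.31). *Mlxipl*, the glucose-responsive factor ChREBP, rose most, from no count in 3 juvenile libraries and 0.130 CPM in the other to 4.42 and 7.16 CPM (log2 fold change 7.23, SE 0.70, adjusted p = 2.35e-06; 9.43 without juvenile replicate 4). *Mxd1*, a second repressive MAX partner, fell by 1.28 (SE 0.21; not called with library totals, adjusted p = 0.38), and *Mycn* was at or under 2.72 CPM in all 6 libraries (log2 fold change -0.61, SE 1.13, adjusted p = 0.67; 0.38 with library totals and 0.92 without juvenile replicate 2).

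The largest increases are described next. Among the 15 chosen by rule, the mean over the juvenile libraries was at most 2.44 CPM. The rule ranks by fold change and so favours genes with low juvenile levels, and these levels are a description of the choice only. *Nup210*, which encodes a nucleoporin of the nuclear pore membrane, had 2.34, 2.39, 1.45 and 0.651 CPM in the juvenile and 174 and 162 CPM in the *c-Myc* + *R172H* libraries. The groups were far apart, and the gene rose 94.2-fold (log2 fold change 6.56, SE 0.21, adjusted p = 8.04e-10). *Adgrg1*, an adhesion G protein-coupled receptor, had 0, 0.544, 0 and 0 CPM in the juvenile and 71.7 and 67.3 CPM in the *c-Myc* + *R172H* libraries (log2 fold change 8.80, SE 0.38, adjusted p = 4.94e-09). *Epha8*, an ephrin receptor, had at most 2.44 CPM and then 70.5 and 57.9 CPM (5.32, SE 0.37). The architectural chromatin factor *Hmga1* had 0.390, 0.109, 1.31 and 1.17 CPM in the juvenile and 49.3 and 42.3 CPM in the *c-Myc* + *R172H* libraries (6.05, SE 0.37). *Hmga1b*, a near-identical copy of *Hmga1* with which it may share reads, had no juvenile count and 276 and 229 counts in the *c-Myc* + *R172H* libraries, at least 144-fold higher against a floor of 3 counts over the group. The others were *Adgrv1* (6.83), *Chchd10* (5.85), *Dpf1* (5.75), *Cecr2* (5.43), *Tmod2* (5.32), *Shmt1*, the nucleotide hydrolase *Dnph1* (5.04), *Xylb* (5.02), *Tst* (4.92) and *Bicd1* (4.87). With juvenile levels near 0, single libraries moved several of these values by over 1.5-fold. They became 12.99 for *Adgrg1*, 5.91 for *Dnph1* and 5.90 for *Bicd1* without juvenile replicate 2, 11.63 for *Adgrv1*, 7.11 for *Cecr2* and 5.62 for *Tst* without replicate 1, 6.52 for *Dpf1* and 5.80 for *Xylb* without replicate 3, and 6.85 for *Chchd10* without replicate 4.

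In all, 100 tested genes had no count in any juvenile library and 27 had none in either *c-Myc* + *R172H* library. Next to *Hmga1b*, the genes of the former kind with the highest means were *Blnk*, an adaptor of B cell receptor signaling with 198 and 177 counts (at least 107-fold higher), *Plch2* (at least 102-fold), *Eno1b*, and the Wnt ligand *Wnt10a* with 181 and 127 counts (at least 87.5-fold). *Eno1b* came from a single library, with 361 counts in replicate 1 and 1 count in replicate 2, and was not called (adjusted p = 0.146), though it was without replicate 2 (adjusted p = 1.92e-06). Of those missing from *c-Myc* + *R172H* libraries, *Scrg1* had 145, 134, 43 and 7 juvenile counts (at least 119-fold lower), *Trim14* 22, 39, 37 and 20 counts (at least 47.5-fold), and *Scube2* 14 to 30 counts (at least 38-fold). A gene without counts in 1 group passed the filter only through the other libraries. The bounds allow for group depth, as 3 counts over the group were 0.0882 CPM in juvenile and 0.0756 CPM in *c-Myc* + *R172H* libraries. Single juvenile libraries were shallower, with 3 counts at 0.292 to 0.436 CPM, against 0.144 and 0.159 CPM. The numbers 100 and 27 depend on this filter and depth and are a description only.

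The listed matrix genes of the osteoblast were lower without exception. All 48 listed genes of osteoblast matrix and mineralization were called lower, where 26.3% of all genes were, and their libraries did not overlap between the groups for any of the 48, where 30.0% of all tested genes were lower without overlap. The log2 fold changes ran from -5.19 to -0.77 (median -2.74, or -1.69 with library totals, by which 41 were called lower and none higher). Together these genes held 59.2 ± 3.63% (SD, n = 4) of the juvenile counts and 10.4 ± 0.117% (SD, n = 2) of the *c-Myc* + *R172H* counts. *Col1a1* (chromosome 11, 94936224 to 94953042) fell by 3.74 (SE 0.20, adjusted p = 1.61e-08) and its partner chain *Col1a2* by 3.51 (SE 0.19). *Bglap*, which encodes the bone hormone osteocalcin, had 262, 423, 492 and 442 CPM in the juvenile and 13.0 and 9.17 CPM in the *c-Myc* + *R172H* libraries. It fell the furthest of the list (log2 fold change -5.19, SE 0.40, adjusted p = 6.01e-06) and may share reads with its near-identical neighbour *Bglap2*. *Col3a1*, a fibrillar collagen of softer tissue, had 1055, 1012, 840 and 1599 CPM in the juvenile and 40.1 and 34.9 CPM in the *c-Myc* + *R172H* libraries (-4.91, SE 0.26). *Sparc*, the collagen-binding protein osteonectin, went from 26351 to 35468 CPM in juvenile libraries to 2682 and 2704 CPM (-3.55, SE 0.15). Outside the list not every matrix gene fell. *Spon1*, described below, rose by 2.36. *Tnc*, a matrix glycoprotein, held 0.0992% to 0.220% of all counts in juvenile libraries and 0.344% and 0.298% in *c-Myc* + *R172H* libraries, shares that are not on the TMM scale.

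*Sp7*, which encodes OSX, had 242, 249, 257 and 252 CPM in the juvenile and 125 and 131 CPM in the *c-Myc* + *R172H* libraries, a tight and separate pair of groups (log2 fold change -0.97, SE 0.10, adjusted p = 5.43e-06). *Runx2*, the master factor of the lineage, had 266, 241, 216 and 236 CPM in the juvenile and 155 and 151 CPM in the *c-Myc* + *R172H* libraries (-0.65, SE 0.10, adjusted p = 1.16e-04). With library totals both were on the other side, at 0.08 and 0.39. Of 30 tested lineage transcription factors, 17 were called lower and 5 higher, against 26.3% and 30.4% of all genes (median -0.64, or 0.41 with library totals, by which 6 were called lower and 11 higher); without either *c-Myc* + *R172H* library 3 were called higher. *Dlx5*, a homeobox activator of osteoblast genes, fell by 1.16 (SE 0.14; not called with library totals, adjusted p = 0.542). *Sox5*, a partner of SOX9 in cartilage, fell by 5.39 (SE 0.85; 6.02 without *c-Myc* + *R172H* replicate 2), whereas its relative *Sox6* rose by 1.25 (SE 0.16), from 12.8 to 18.3 CPM to 36.1 and 34.2 CPM. Of 13 tested osteocyte genes, 11 were called lower, against 26.3% of all genes (median -2.39; 8 lower and 1 higher with library totals), and 3 of them, *Dmp1*, *Mepe* and *Phex*, are also in the matrix list. *Dmp1*, a phosphoprotein of embedded cells, went from 224 to 422 CPM in juvenile libraries to 46.0 and 57.0 CPM, and *Pdpn* fell by 5.12 (SE 0.55).

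**Figure D4:**
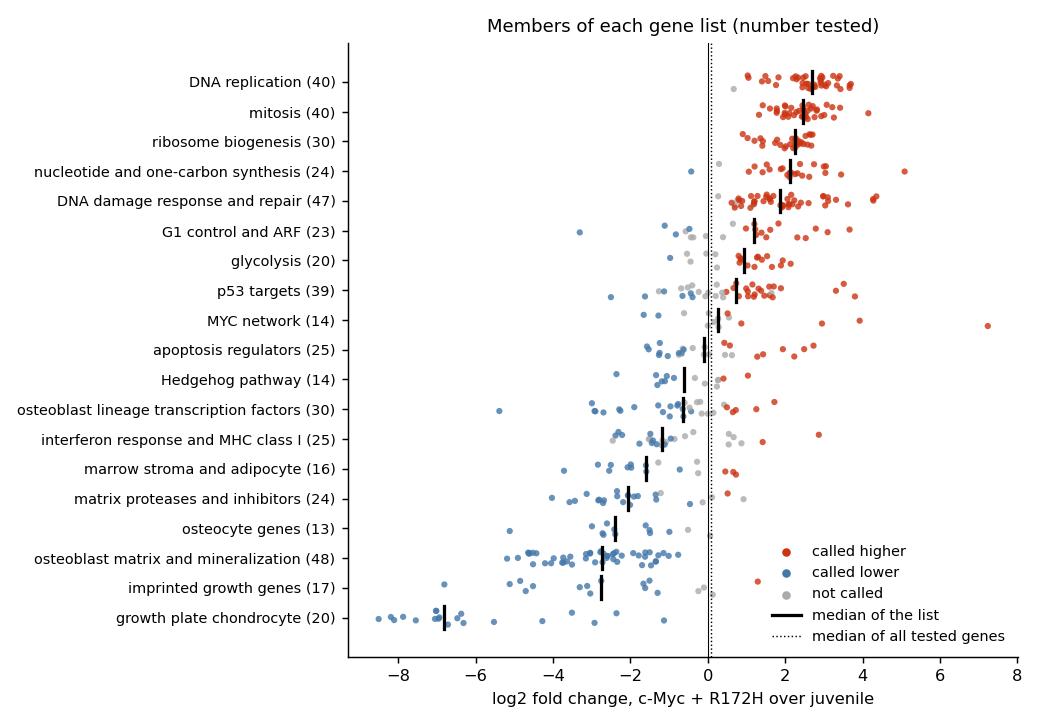
Log2 fold change of *c-Myc* + *R172H* over juvenile (x axis) of each tested member of the 19 gene lists with at least 10 tested members (y axis, number tested in brackets), red where called higher, blue where called lower and grey where not called. Thick bars mark list medians, from -6.83 for growth plate chondrocyte genes to 2.69 for DNA replication genes, and the dotted line the median of all tested genes, 0.08.

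Cartilage genes were among the largest decreases. All 20 growth plate chondrocyte genes were called lower, against 26.3% of all genes, with a median of -6.83, and the list took 2.36 ± 0.689% (SD, n = 4) of the juvenile counts and 0.195 ± 0.0171% (SD, n = 2) of the *c-Myc* + *R172H* counts. *Col2a1*, the collagen of cartilage, had 17557, 20356, 20457 and 7383 CPM in the juvenile and 135 and 134 CPM in the *c-Myc* + *R172H* libraries (log2 fold change -6.94, SE 0.63, adjusted p = 1.09e-04). Juvenile replicate 4, the library that stood apart, was the lowest of its group for this gene and yet far above both induced libraries; without it the median of the list was -7.08 and all 20 were still called lower. *Acan*, the large proteoglycan of cartilage, fell by 7.02 (SE 0.86), *Col10a1*, the collagen of hypertrophic chondrocytes, by 8.11 (SE 1.28), and *Cnmd*, chondromodulin, by 8.19 (SE 0.70). *Sox9*, the master factor of chondrocytes, had 65.5, 91.7, 54.1 and 23.1 CPM in the juvenile and 6.78 and 8.69 CPM in the *c-Myc* + *R172H* libraries, a smaller change (-2.93, SE 0.47, adjusted p = 3.97e-04). Of the 15 largest decreases chosen by rule, 7 were of this list, *Ucma* (-8.50), *Cnmd*, *Col10a1*, *Matn1* (-7.87), *Col9a2* (-7.54), *Comp* (-7.05) and *Acan*, and *Scrg1* (at least 119-fold lower), *Scin* (-8.31), *Tmem132e* (-8.14), *Mgp*, an inhibitor of calcification (-7.69), *Syt8* (-7.55), *Meltf* (-7.51), *Kcna6* (-7.43) and *Colgalt2* (-7.26) were not. Several of these values moved by over 1.5-fold when 1 library was left out. Without *c-Myc* + *R172H* replicate 1 and replicate 2, in turn, they were -7.46 and -9.32 for *Col10a1*, -10.14 and -7.57 for *Scin*, -6.70 and -9.41 for *Syt8*, -9.97 and -7.40 for *Tmem132e* and -7.66 and -10.37 for *Ucma*, and *Kcna6* was at -6.75 without juvenile replicate 3. The growth plate had been removed at dissection in every group, and how much of these transcripts came from chondrocytes in the sort was not tested.

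Growth-associated genes of the juvenile bone were lower as well. Of 17 tested imprinted growth genes, 13 were called lower and 1 higher, against 26.3% and 30.4% of all genes (median -2.75; 9 lower and 4 higher with library totals). *Igf2*, the fetal insulin-like growth factor, had 77.5, 56.9, 23.3 and 21.9 CPM in the juvenile and 0.914 and 1.70 CPM in the *c-Myc* + *R172H* libraries, without overlap (log2 fold change -5.12, SE 0.66, adjusted p = 9.49e-05). *H19*, the non-coding RNA expressed from the neighbouring locus, fell by 4.70 (SE 0.65), from 32.4 to 119 CPM to 2.12 and 2.86 CPM. *Slc38a4*, an amino acid transporter, was the member that rose (1.29, SE 0.19). In the Hedgehog pathway, through which growth plate cartilage signals to osteoblast precursors, 7 of 14 tested genes were called lower and 2 higher, against 26.3% and 30.4% of all genes (median -0.60, or 0.44 with library totals, by which 6 were called higher and none lower). Without *c-Myc* + *R172H* replicate 2, 3 were called lower and 0 higher, and without replicate 1 or juvenile replicate 1 or 2, 1 was called higher. *Gli1*, the usual readout of the pathway, had 21.8, 18.1, 20.2 and 8.08 CPM in the juvenile and 32.0 and 38.2 CPM in the *c-Myc* + *R172H* libraries (1.04, SE 0.27, adjusted p = 0.00544; adjusted p = 0.0598 without *c-Myc* + *R172H* replicate 2). *Gli2*, the main activator, had 36.3, 31.8, 47.5 and 36.7 CPM in the juvenile and 46.9 and 42.5 CPM in the *c-Myc* + *R172H* libraries, within the juvenile range (0.24, SE 0.15, adjusted p = 0.203; without juvenile replicate 3, 0.35 and adjusted p = 0.0229). *Ptch1*, the receptor and target, overlapped between the groups too (0.26, SE 0.22, adjusted p = 0.342). The ligand *Ihh* had 23.3, 41.8, 12.5 and 4.17 CPM in the juvenile and 3.32 and 4.72 CPM in the *c-Myc* + *R172H* libraries. Its decrease of 2.36 (SE 0.76, adjusted p = 0.0244) was no longer called without either *c-Myc* + *R172H* library (adjusted p = 0.176 and 0.121) or with library totals (-1.36, adjusted p = 0.0967), and was 1.75 without juvenile replicate 2.

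Of 16 tested stromal and adipocyte genes, 10 were called lower and 3 higher, against 26.3% and 30.4% of all genes (median -1.59), the latter 1 without either *c-Myc* + *R172H* library. With library totals 6 were called lower and 4 higher (median -0.55). *Lepr*, the leptin receptor that marks marrow stromal cells, had 127, 143, 127 and 121 CPM in the juvenile and 9.14 and 10.6 CPM in the *c-Myc* + *R172H* libraries (log2 fold change -3.72, SE 0.15, adjusted p = 3.63e-09). *Cxcl12*, the chemokine that retains blood stem cells, fell by 1.60 (SE 0.32), but was not called with library totals (-0.53, adjusted p = 0.0716), and *Vcam1* fell by 2.84 (SE 0.36). Among the 3 called higher were *Lpl*, which rose by 0.73 (SE 0.21), and *Cebpa*, which rose by 0.66 (SE 0.19). Of 24 tested matrix proteases and inhibitors, 19 were called lower and 1 higher, against 26.3% and 30.4% of all genes (median -2.06; 14 lower and 5 higher with library totals), the latter 0 without juvenile replicate 1 or either *c-Myc* + *R172H* library. *Mmp2* and *Mmp14*, a gelatinase and the membrane protease that activates it, fell by 2.68 (SE 0.11) and 2.34 (SE 0.11), and *Adamts2*, which trims procollagen, by 3.57 (SE 0.15). Of 25 tested interferon and MHC class I genes, 10 were called lower and 2 higher, against 26.3% and 30.4% of all genes (median -1.17), the latter 1 without juvenile replicate 4 or either *c-Myc* + *R172H* library. With library totals 4 were called lower and 4 higher (median -0.16). *Tapbp*, the tapasin that loads peptides on MHC class I, had 53.8, 54.3, 64.8 and 50.9 CPM in the juvenile and 9.81 and 11.6 CPM in the *c-Myc* + *R172H* libraries (-2.38, SE 0.16, adjusted p = 1.29e-07), whereas *Bst2*, an interferon-induced membrane protein, rose by 1.42 (SE 0.24).

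Glycolysis genes were higher as a rule but by less. Of 20, 14 were called higher and 1 lower, against 30.4% and 26.3% of all genes (median 0.95). *Eno1*, which encodes enolase, had 88.8, 78.0, 74.3 and 51.5 CPM in the juvenile and 300 and 346 CPM in the *c-Myc* + *R172H* libraries (2.14, SE 0.16, adjusted p = 2.36e-07). *Ldha*, which makes lactate, rose by 1.53 (SE 0.11), and *Slc16a1*, a lactate carrier, by 1.94 (SE 0.15). *Slc2a1*, the glucose carrier GLUT1, was not called (0.19, SE 0.17, adjusted p = 0.363), and *Hk1*, a hexokinase, fell by 0.97 (SE 0.16, adjusted p = 2.27e-04), which turned to 0.08 with library totals, while *Hk2*, the form induced in many tumours, rose by 0.80 (SE 0.11). Among the genes with the most counts in the induced libraries, the translation factors *Eef2* (0.15, SE 0.09, adjusted p = 0.168) and *Eef1a1* (0.07, SE 0.08, adjusted p = 0.527) and the cytoskeletal *Actb* (-0.08, SE 0.09, adjusted p = 0.479; 0.96 with library totals) were not called, and the chaperone *Hsp90ab1* rose by 1.69 (SE 0.08).

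Hematopoietic, endothelial, erythroid and muscle markers were low in both groups. Summed over the 25 hematopoietic and myeloid genes, the level ran from 2.74 to 6.39 CPM in juvenile libraries, with 15 genes at 0 in all 4, and was 12.9 and 10.1 CPM in *c-Myc* + *R172H* libraries, with 8 genes at 0 in both. *Ptprc*, which encodes the sorted-out CD45, had no juvenile count and 0.144 and 0.053 CPM. Only *Lyz2*, the lysozyme of myeloid cells, was called higher among the 6 tested (2.95, SE 0.76, adjusted p = 0.00547; adjusted p = 0.112 without *c-Myc* + *R172H* replicate 1, and 4.09 without juvenile replicate 3). Of the 6 endothelial genes tested, with log2 fold changes from -3.07 to 6.39, 3 were called higher and 2 lower, against 30.4% and 26.3% of all genes. The 16 listed endothelial genes summed to 13.7 to 22.7 CPM in juvenile and 18.9 and 21.5 CPM in *c-Myc* + *R172H* libraries. *Pecam1*, which encodes CD31, was at 0.433 and 0.689 CPM and *Cdh5* at 0 and 0.318 CPM in the latter and both at 0 in the former, while *Egfl7*, a secreted factor, rose from at most 0.544 CPM to 6.11 and 6.47 CPM (5.10, SE 0.66, adjusted p = 2.82e-05; 7.02 without juvenile replicate 2). Erythroid genes summed to 6.31 to 16.0 CPM and to 11.1 and 11.2 CPM, and muscle genes to 1.30 to 5.23 CPM and to 3.22 and 3.66 CPM, with 0 of 1 and 1 of 3 tested genes called. The log2 fold changes of the 3 tested muscle genes ran from -7.48 to 1.33. The osteoclast list was not low in sum, at 279 to 432 CPM in juvenile libraries and 106 and 102 CPM in *c-Myc* + *R172H* libraries. Yet 6 of its 13 genes were at 0 in all 4 juvenile libraries and 4 in both *c-Myc* + *R172H* libraries, with *Calcr* and *Dcstamp* at 0 in all 6. Of the 6 tested, 3 were called lower, against 26.3% of all genes (1 lower and 1 higher with library totals). Among them was *Ctsk*, the collagen-cleaving protease, with 134, 155, 132 and 143 CPM in the juvenile and 19 and 18.3 CPM in the *c-Myc* + *R172H* libraries (-2.92, SE 0.16). Whether osteoclasts were in the sort, and what part any such cells have in the results, was not tested.

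The *c-Myc* libraries gave the change without the mutant allele. Against the same juvenile libraries, 3577 genes (28.4%) were called higher and 3149 (25.0%) lower with *c-Myc* alone, and the median log2 fold change of genes called higher in *c-Myc* + *R172H* osteoblasts was 1.28 in these and 1.23 with *c-Myc* alone, that of genes called lower -1.43 and -1.25. These genes were chosen by the former comparison and both share the juvenile libraries, so the medians are a description only. Between the induced groups directly, 1 gene was called higher and 58 lower with the mutant allele, 0.00794% and 0.461% of the 12588. These few calls depended on the libraries, the scaling and the fit, and a replicate block gave 30 higher and 296 lower. Library totals gave 1 higher and 11 lower, and leaving out a library gave 0 to 3 higher and 7 to 84 lower, with 7 lower without *c-Myc* replicate 2, 13 and 10 without *c-Myc* + *R172H* replicates 1 and 2, and 27 without juvenile replicate 2. Members of the matrix list made up 12 of the 58. *Lum*, the collagen-binding lumican, had 222, 291, 387 and 311 CPM in juvenile, 41.0 and 52.1 CPM in *c-Myc* and 16.2 and 10.1 CPM in *c-Myc* + *R172H* libraries, a stepwise order without overlap (-1.82, SE 0.25, adjusted p = 0.00974 between the induced groups). *Col1a1* stepped down in the same way, by 1.05 (SE 0.19, adjusted p = 0.0307), and so did *Gask1b* (-2.23), *Mdga1* (-1.86), the Wnt modulator *Dkk3* (-1.83), *Adamts15* (-1.73), *Col3a1* (-1.71), *Col11a1* (-1.54), *Lepr* (-1.08) and *Adamts2* (-1.01). Of these genes and *Spon1*, *Col11a1* alone was called whichever of the 8 libraries was left out (highest adjusted p = 0.0131), and *Lum* was in 6 of the 8. *Spon1*, a secreted matrix protein, was the gene called higher, at 16.5, 16.4, 17.6 and 17.7 CPM in juvenile, 50.1 and 51.1 CPM in *c-Myc* and 86.6 and 88.6 CPM in *c-Myc* + *R172H* libraries (0.79, SE 0.12, adjusted p = 0.0149), though not when any of the 4 induced libraries was left out (adjusted p = 0.167 to 0.291).

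**Figure D5:**
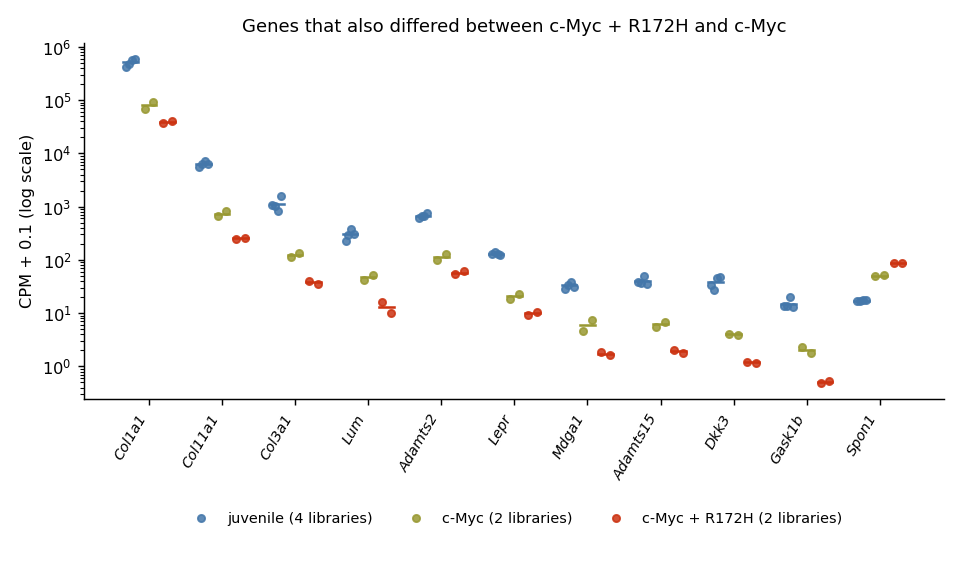
CPM plus 0.1 on a log axis (y axis) of genes that differed both between *c-Myc* + *R172H* and juvenile and between *c-Myc* + *R172H* and *c-Myc* libraries (x axis), with 1 point per library and a bar at the group mean. *Lum* lies at 222 to 387 CPM in juvenile, 41.0 and 52.1 CPM in *c-Myc* and 16.2 and 10.1 CPM in *c-Myc* + *R172H* libraries, and *Spon1* runs in the opposite order.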

How the data were processed

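Sorted osteoblasts were profiled by bulk RNA-seq with a directional library kit and single-end reads. Per the methods of the authors, reads were demultiplexed with bcl2fastq 2.20, trimmed with cutadapt 4.6, aligned with STAR 2.7.11a to mm10 with transgene sequences added, and counted with HTSeq 2.0.5. The strand setting of the counting is not given in the sources used here. The values deposited by the authors are raw counts of uniquely mapped reads per gene, 1 table for the whole series, with 0 columns left without a sample.

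Groups followed the labels. Juvenile libraries (4) and those of both induced genotypes (2 each) entered 1 fit in R 4.3.3 with edgeR 4.0.16 (filterByExpr by group, TMM, robust quasi-likelihood F test, Benjamini-Hochberg adjustment over the 12588 tested genes, threshold 0.05), whereas the authors tested with DESeq2. All p-values of single genes are adjusted p-values from this edgeR test unless DESeq2 1.42.0 is named. SE is the absolute log2 fold change over the square root of F, an approximation. CPM used TMM library sizes. Bounds against a group without counts used 3 counts over the group and, like any count, cover counting error only. Positions came from GENCODE M21 (GRCm38), and promoter windows from RefSeq (GRCm38.p6).

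On simulated data of 12051 genes for this comparison, 86 of 192 genes changed 2-fold were called (44.8%), and 5 of 11859 unchanged ones. Few genes were changed there, whereas 56.7% were called in the data. The share called therefore does not carry over to the data. With most genes unchanged by design, the simulation does not examine the TMM scaling either.

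The members, the 25 gene lists and the tests were chosen with earlier results of these data known. Lists share members. Named genes were those of the study's text and transgenes, the 15 largest changes each way among called genes that did not overlap and had a mean of at least 50 normalized counts (2 predicted models passed over among increases), leading and extreme members of each list, the largest count shares, the genes without counts in 1 group, and the largest changes against *c-Myc*. *Ak1*, *Ptpn14*, *Tob1*, *Fancb*, *Rpa3*, *Rad9a*, *Rnf168*, *Gins3*, *Mthfd2* and *Phex*, and the genes shown only for their promoter letters, were named after their values were seen. Alternatives were other scalings, filters, library sets, DESeq2, a replicate block, each library left out, and, added after seeing the data, a fit without genes of chromosomes X and Y and those of the comparison with *c-Myc*.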

Additional observations from a re-analysis of the deposited data

Results flagged for a closer look

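Juvenile levels were examined for 1 library far from the other 3 of its group, by Dixon's criterion at 95%. Of 168 values, 11 had such a library, and chance gives about 1 in 20. Groups of 2 libraries could not be examined in this way.

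In juvenile replicate 4, *Atr* was low at 6.90 CPM against 10.3 to 10.7 CPM in the others, and *Slc2a1* was low at 13.4 CPM against 17.6 to 18.4 CPM. The same library had the only juvenile counts of *Mlxipl* (0.130 CPM) and of *Xist* (0.782 CPM). In juvenile replicate 1, *CreERT2* was low at 53.5 CPM against 70.8 to 73.1 CPM, *Bcl2* was high at 10.8 CPM against 8.28 to 8.49 CPM, and *Adgrv1* had its only juvenile counts (0.780 CPM). In juvenile replicate 3, *Ccne1* was high at 4.65 CPM against 1.31 to 1.69 CPM, *Gask1b* was high at 19.9 CPM against 13.0 to 13.7 CPM, and the summed endothelial list was high at 22.7 CPM against 13.7 to 14.7 CPM. *Adgrg1* had its only juvenile counts in replicate 2 (0.544 CPM). The gene-level values for *Atr*, *CreERT2*, *Bcl2*, *Ccne1*, *Gask1b*, *Adgrg1*, *Adgrv1* and *Mlxipl* remained on the same side of every *c-Myc* + *R172H* value.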

How the results depend on the processing

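Of 19 alternatives of the comparison with juvenile libraries, plain library totals moved the counts of calls by over 1.5 times, to 7668 genes higher and 1169 lower, and to 6264 and 868 at 2-fold or more; the other 18 did not. Library totals also turned the medians of apoptosis regulators (0.95), osteoblast lineage transcription factors (0.41) and the Hedgehog pathway (0.44), and the log2 fold changes of *Actb* (0.96), *Cdkn1a* (0.61), *Cdkn2c* (0.47), *EGFP* (0.83), *Hk1* (0.080), *Impdh1* (0.61), *Mycn* (0.38), *Ptpn14* (0.40), *Runx2* (0.39), *Sp7* (0.082) and *Tob1* (0.66). TMM centres most genes near no change and library totals do not. DESeq2 called 3702 genes higher and 3610 lower with 8 libraries. Leaving out each library gave 2748 to 3998 genes higher and 2417 to 3476 lower, the smaller numbers without either *c-Myc* + *R172H* library, which leaves 1 library assumed to vary like the others; *Mycn* then ran from -1.02 to 0.92. The replicate block gave 4267 higher and 3731 lower and put *EGFP* at 0.035, and *Cxcl12* was not called in it (adjusted p = 0.167 by edgeR). Deviations of same-numbered juvenile and *c-Myc* + *R172H* libraries correlated at 0.0177 and 0.00559, so the replicate numbers were not taken to pair these samples. Same-numbered *c-Myc* and *c-Myc* + *R172H* libraries correlated at 0.165, over only 2 pairs. The 5 sex-linked genes held 0.00627% and 0.0299% of the counts in *c-Myc* replicates 1 and 2, and 0.00724% and 0.0333% in those of *c-Myc* + *R172H*. Same-numbered induced libraries thus looked alike in sex, and the main fit against *c-Myc* does not take this into account. Against *c-Myc*, 1 gene was called higher and 58 lower, the block gave 30 and 296, with *Lum* no longer called (adjusted p = 0.282 by edgeR), library totals 1 and 11, and leaving out each library 0 to 3 and 7 to 84. These alternatives against *c-Myc* were chosen after seeing the data. With 2 induced libraries, genes not called may still differ.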
